A study of Mus musculus with 3 samples.

Results

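Genes that make, load, break down or feed the transmitter GABA, and 1 vesicular glutamate transporter, were followed in sorted neurons of the developing mouse neocortex. There were 6 of them, chosen by name out of the 31053 genes in the count files: Gad1 and Gad2 (synthesis), Slc32a1 (vesicle loading of GABA), Slc17a8 (vesicle loading of glutamate), Abat (breakdown) and Slc38a1 (glutamine uptake). The cells came from SstCre/+;RCEfl/+ mice (strain label Sst-Cre; RCEloxP), in which Cre from the Sst gene switches on a permanent GFP reporter. GFP+ and DAPI negative neocortical cells were sorted and captured for 10x Genomics single-cell RNA sequencing, in 1 library each at E16.5 (6 pooled animals), P1 (3 pooled animals) and P5 (3 pooled animals). All 3 libraries had this genotype, and the labels name no treatment. The reporter marks any cell that once expressed Sst, so a sorted cell need not express it at the age sampled. With animals pooled and 1 library per age, age and library cannot be told apart and the spread between animals is unknown. The P1 and P5 suspensions also went through a Percoll step and the P5 tissue through trypsin, which belongs to the same difference.

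GABA is made from glutamate by 2 decarboxylases, GAD67 (Gad1) and GAD65 (Gad2). GAD67 is found through the whole cell and supplies most GABA early in life, while GAD65 is concentrated at axon terminals. The vesicular transporter VGAT (Slc32a1) then loads GABA into synaptic vesicles, the transaminase encoded by Abat degrades it, and the transporter encoded by Slc38a1 brings in glutamine, from which glutamate is remade. Slc17a8 encodes VGLUT3, a vesicular glutamate transporter that some GABA neurons also carry.

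The files held 4478, 4440 and 3406 cells with 25638779, 15654107 and 13429055 UMIs (unique molecules counted) at E16.5, P1 and P5. Cells with more than 700 genes and under 10% of UMIs from mitochondrial (mt-) genes were kept, which left 3952, 2501 and 2980 cells with a median of 5577, 3293 and 3935.5 UMIs. The share of cells kept was 88.3%, 56.3% and 87.5%, lowest at P1. Few barcodes were shared between libraries: 3 between E16.5 and P1, 1 between E16.5 and P5 and 6 between P1 and P5. The cells were read in 3 classes. Nos1 cells had at least 1 Nos1 UMI (67, 434 and 547 cells), Lhx6 cells had an Lhx6 UMI and none of Nos1 (3269, 1606 and 1874), and Neurod6 cells had at least 2 Neurod6 UMIs (42, 30 and 14). Nos1 marks long-range projecting Sst neurons, Lhx6 the interneuron lineage of the medial ganglionic eminence, and Neurod6 excitatory neurons, which should lack GABA synthesis and so give the negative level. Median UMIs per cell were 7863, 3704.5 and 3073 in Nos1 cells, 5808, 3811 and 4752.5 in Lhx6 cells and 12345, 6632 and 4644 in Neurod6 cells. Levels are in CPM, the UMIs of a gene summed over a class and scaled to the summed UMIs of that class, with 95% Poisson intervals that cover counting error only.

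The labels of the classes were read against marker genes in each library. An Lhx6 UMI was present in 73.1%, 82.9% and 71.7% of Nos1 cells at E16.5, P1 and P5. Npy, the most abundant gene of the long-range list in Nos1 cells, stood at 12366, 24679 and 34619 CPM there, against 1635, 1208 and 816 CPM in Lhx6 cells. Npy is also on the list of interneuron subset genes. At E16.5 1568 Lhx6 cells without a Neurod6 UMI had at least 2 UMIs of it. At E16.5, however, 15 of the 67 Nos1 cells (22.4%) also had a Neurod6 UMI, against 17 of 434 (3.92%) at P1 and 2 of 547 (0.366%) at P5. The other 5 excitatory markers (Neurod2, Slc17a7, Slc17a6, Emx1 and Tbr1) summed to 301, 108 and 5.09 CPM in Nos1 cells. Without the cells that had a Neurod6 UMI the sums were 2.48, 41.4 and 2.55 CPM in Nos1 cells, against 1.14, 2.27 and 1.51 CPM in Lhx6 cells, so at P1 part of this signal remained. The E16.5 levels and thinned shares of Gad1, Gad2 and Slc32a1 in Nos1 cells are therefore also given without those cells. A single Nos1 UMI put 38 of the 67 E16.5 Nos1 cells (56.7%) in the class, against 126 of 434 (29.0%) at P1 and 81 of 547 (14.8%) at P5. No doublet caller was run. Exclusive classes (no Neurod6 UMI in Nos1 and Lhx6 cells, no Nos1 or Lhx6 UMI in Neurod6 cells) held 52, 417 and 545 Nos1 cells, 3255, 1594 and 1872 Lhx6 cells and 22, 16 and 13 Neurod6 cells. Whether the doubly positive cells were doublets was not tested.

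Gad1, the GAD67 gene (ENSMUSG00000070880, chromosome 2, 70553072 to 70602014, plus strand, build GRCm38), was present in both GABAergic classes at every age. In Lhx6 cells its level was 273 CPM (266 to 280.2) at E16.5, 290.0 CPM (278 to 302) at P1, with 149.8 CPM (142 to 158) at P5. In Nos1 cells it was 189 CPM (155 to 227), 279.8 CPM (257 to 304) and 203 CPM (184 to 224). Neurod6 cells had 16.01 CPM (7.32 to 30.4), 53.6 CPM (28.5 to 91.7) and 0 UMIs, where 3 UMIs would have been 48.0 CPM. Gad1 was thus lowest in P5 Lhx6 cells among the GABAergic classes, 1.94-fold (1.81 to 2.07) below P1, and in Nos1 cells the P5 level was 1.38-fold (1.21 to 1.57) below P1. The 2 classes stood on opposite sides at the outer ages: Nos1 cells had 0.690 times (0.567 to 0.832) the Lhx6 level at E16.5 and 1.36 times (1.21 to 1.52) at P5. The E16.5 gap was 0.977 times (0.800 to 1.18) in exclusive classes, where Nos1 cells had 268 CPM, and its log2 ratio was 0.10 in place of -0.53 with every cell thinned to 2000 UMIs. In exclusive Nos1 cells without a Dach1 UMI, a setting chosen after values were seen, the ratio was 1.01 times (0.781 to 1.29). The remaining settings kept the log2 ratio below 0, from -0.31 without cells above 3 times the median UMIs to -0.73 with at least 2 UMIs of the defining gene. At P1 the classes were within counting error of each other, at 0.965 times (0.877 to 1.06).

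Gad2, the GAD65 gene (ENSMUSG00000026787, chromosome 2, 22622205 to 22693874, plus strand), was lower in Nos1 than in Lhx6 cells of each library. In Nos1 cells its level was 89.2 CPM (66.8 to 117) at E16.5, 264 CPM (242 to 288) at P1, with 392 CPM (365 to 420.4) at P5. In Lhx6 cells it was 302 CPM (295 to 309.6), 387 CPM (374 to 401) and 487 CPM (473 to 501). The intervals of the 2 classes did not overlap at any of the 3 ages, and the gap was widest at E16.5. There Nos1 cells were 3.39-fold (2.59 to 4.53) lower, or 2.40-fold (1.82 to 3.22) lower in exclusive classes, where Nos1 cells had 126 CPM. The gap was 1.47-fold (1.34 to 1.61) at P1 and 1.24-fold (1.15 to 1.34) at P5. The log2 ratio at P5 was -0.31 as summed, -0.30 as a mean over cells and -0.03 with every cell thinned to 2000 UMIs, which also left out 133 Nos1 and 201 Lhx6 cells under that depth. Which of these steps moved it was not tested. Gad2 also varied with the mitochondrial share of the Lhx6 cells, in a split chosen after the values were seen. Cells under 5% mt- UMIs had 318, 474 and 512 CPM, and those at 5 to 10% had 261, 370 and 414 CPM, with intervals that did not overlap in any library. The removed cells at 10% or more had 378 CPM (328 to 434) at E16.5, 292 CPM (272 to 312) at P1 and 233 CPM (160.1 to 327) at P5, so Gad2 was lower at a higher share throughout at P1 and P5 but not at E16.5. With more than 1000 genes and under 5% mt- UMIs asked of each cell, the P1 log2 ratio of Nos1 over Lhx6 cells was -0.94 in place of -0.55.

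Across ages Gad2 was higher in Nos1 cells at P1 than at E16.5 by 2.96-fold (2.23 to 4.005), or 2.21-fold (1.66 to 3.01) in exclusive classes, and at P5 than at P1 by 1.48-fold (1.33 to 1.66). In Lhx6 cells the steps were 1.28-fold (1.23 to 1.34) and 1.26-fold (1.20 to 1.32). The last of these steps was small in other readings, with a log2 ratio of 0.33 as summed, 0.08 as a mean over cells and 0.07 after thinning. The makeup of the exclusive Nos1 cells differed between libraries: 42.3%, 24.0% and 7.71% of them had a UMI of Dach1 and 1.92%, 13.7% and 43.3% one of Lypd1, both long-range markers. Without Dach1 cells, a reading chosen after values were seen, Gad2 in exclusive Nos1 cells was 179 CPM (129 to 243, from 30 cells), 327 CPM and 412 CPM. The steps were then 1.82-fold (1.33 to 2.56), inside 2-fold, and 1.26-fold (1.12 to 1.42), and Nos1 cells had 0.592 (0.426 to 0.801), 0.842 (0.761 to 0.929) and 0.847 times (0.782 to 0.916) the Lhx6 level. The part of makeup in these steps was not tested further. Neurod6 cells had 14.2 CPM (6.14 to 28.0), 53.6 CPM (28.5 to 91.7) and 0 UMIs of Gad2, and the exclusive Neurod6 cells had 0 UMIs of it in all 3 libraries.

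**Figure D1:**
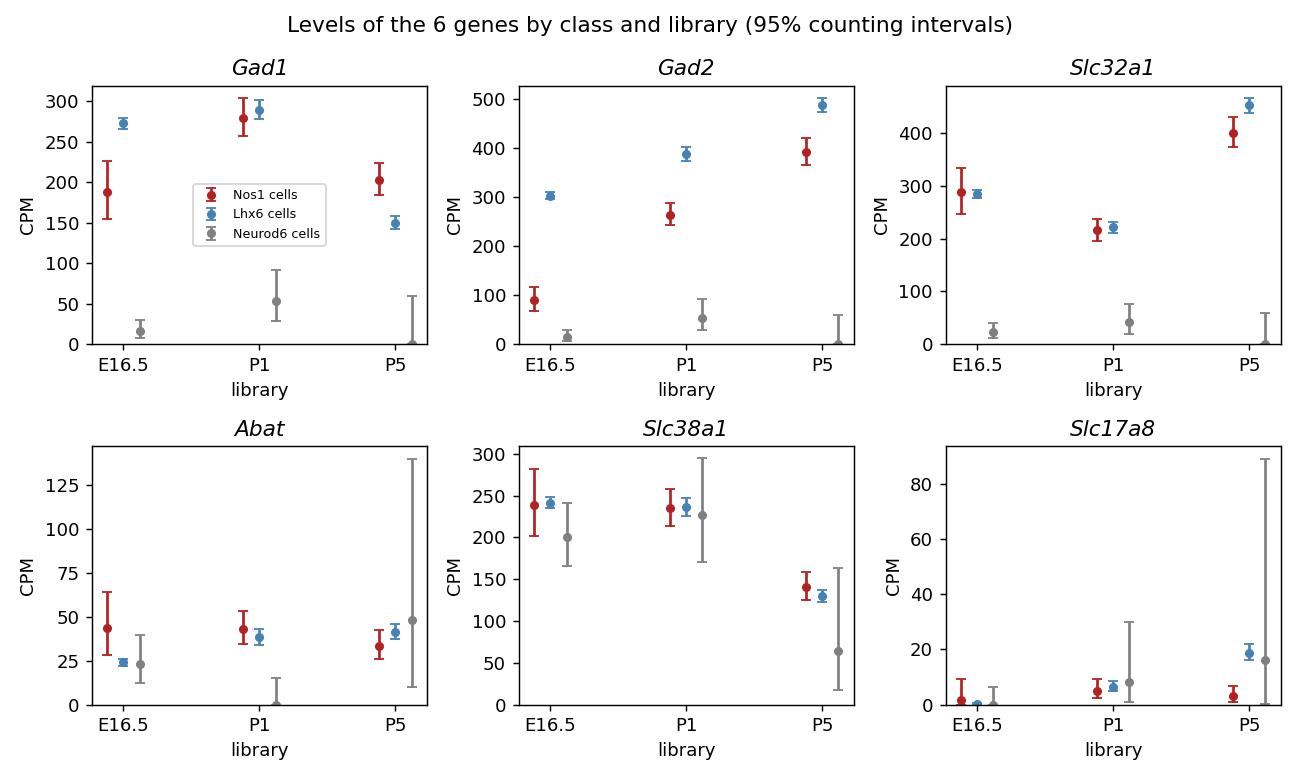
Level of each of the 6 genes (CPM, vertical axis from 0) in Nos1, Lhx6 and Neurod6 cells of the E16.5, P1 and P5 libraries. Points are class levels and bars are 95% Poisson intervals; Gad2 in Nos1 cells lies at 89.2, 264 and 392 CPM, below Lhx6 cells in each library, whereas Slc38a1 at E16.5 and P1 lies between 201 and 241 CPM in all 3 classes.

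The balance of the 2 decarboxylase transcripts lay further toward Gad2 in each later library, in both classes. Nos1 cells had 0.473 Gad2 UMIs per Gad1 UMI (0.335 to 0.662) at E16.5, 0.944 (0.836 to 1.07) at P1 and 1.93 (1.71 to 2.18) at P5. Lhx6 cells had 1.11 (1.07 to 1.15), 1.34 (1.27 to 1.41) and 3.25 (3.06 to 3.45). Each ratio in Nos1 cells lay below that of Lhx6 cells of the same library, with intervals that did not overlap. Leaving out the E16.5 Nos1 cells with a Neurod6 UMI gave 0.472 (0.332 to 0.665), so this ratio, unlike the levels, did not depend on them. Transcripts of different genes can be captured with different efficiency, so the ratio compares classes and ages and not the amounts of the 2 enzymes.

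**Figure D2:**
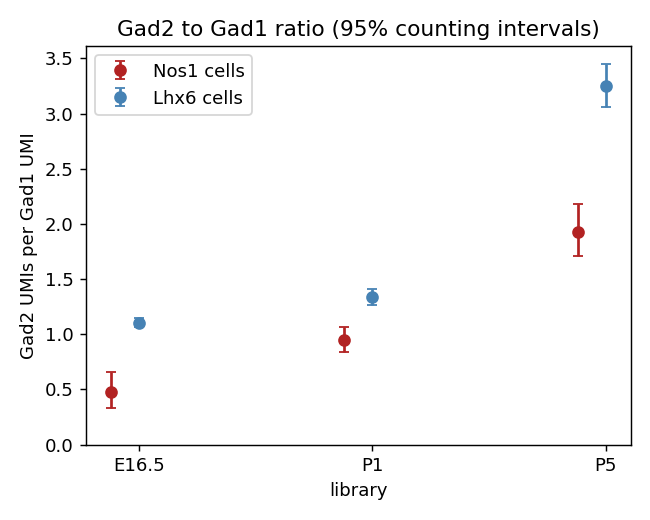
Gad2 UMIs per Gad1 UMI (vertical axis from 0) in Nos1 and Lhx6 cells of the 3 libraries, with 95% counting intervals. The ratio went from 0.473 to 1.93 in Nos1 cells and from 1.11 to 3.25 in Lhx6 cells between E16.5 and P5.

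Slc32a1, the VGAT gene (ENSMUSG00000037771, chromosome 2, 158610767 to 158615748, plus strand), had its lowest GABAergic level at P1 among the kept cells, and its highest at P5 in the classes as defined. Lhx6 cells had 285 CPM (278 to 292), 221 CPM (211 to 232) and 452 CPM (438 to 466) at E16.5, P1 and P5. Nos1 cells had 288 CPM (246 to 334), 216 CPM (196 to 238) and 400.4 CPM (373 to 429). From P1 to P5 the level was 2.04-fold (1.93 to 2.16) higher in Lhx6 cells and 1.85-fold (1.64 to 2.09) higher in Nos1 cells. Nos1 cells stood at 1.01 (0.863 to 1.18), 0.977 (0.877 to 1.09) and 0.886 times (0.820 to 0.956) the Lhx6 level, so they were within counting error at E16.5 and P1 and lower at P5. In the exclusive E16.5 classes Nos1 cells were higher, at 416 CPM (356 to 484) and 1.46-fold (1.24 to 1.70). Exclusive Nos1 cells at P5 had 401 CPM (374 to 430.5), which overlapped the E16.5 level, so P5 was not the highest age there. Neurod6 cells had 23.1 CPM (12.3 to 39.5), 41.2 CPM (19.8 to 75.8) and 0 UMIs.

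Slc32a1 was read in the same split by mitochondrial share. In P1 Lhx6 cells Slc32a1 stood at 222 CPM under 5% mt- UMIs, 221 CPM at 5 to 10% and 490 CPM (464 to 516) in the cells at 10% or more that the filter had removed. The P1 minimum was present in both kept bins, but in Lhx6 cells it was absent once the removed cells were put back. With no limit on mt- UMIs, an alternative chosen after values were seen, Lhx6 cells had 290.1 CPM (283 to 297), 290.1 CPM (280.0 to 300.5) and 458 CPM (445 to 472), and the P5 over P1 ratio was 1.58 (1.51 to 1.66), inside 2-fold. Nos1 cells then had 283, 230.0 and 404 CPM, with P1 at 0.813 times (0.682 to 0.973) the E16.5 level and 0.793 times (0.720 to 0.871) that of P1 Lhx6 cells. At E16.5 the 3 bins had 281, 293 and 501 CPM of Slc32a1, and at P5 441, 482 and 881 CPM. The filter removed 1939 cells at P1, against 526 at E16.5 and 426 at P5, and what set the removed cells apart was not tested.

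Slc17a8, the VGLUT3 gene (ENSMUSG00000019935, chromosome 10, 89574020 to 89621253, minus strand), was scarce. Between the Nos1 and Lhx6 classes it was found mostly in P5 Lhx6 cells. The level there was 18.8 CPM (16.1 to 21.8, from 174 UMIs), with 15.3 CPM (12.5 to 18.6) under 5% mt- UMIs and 28.6 CPM (22.3 to 36.2) at 5 to 10%. In Lhx6 cells of the earlier libraries it was 6.49 CPM (4.85 to 8.51, from 52 UMIs) at P1 and 0.141 CPM (0.0291 to 0.413, from 3 UMIs) at E16.5. Nos1 cells had 1.68, 5.08 and 3.06 CPM from 1, 10 and 6 UMIs. Outside the classes, P5 Slc17a8 was 19.3 CPM (13.1 to 27.4) in kept cells in no class and 31.3 CPM (18.3 to 50.2) in cells removed by the filter. At P5 Slc17a8 was 6.15-fold (2.77 to 17.0) lower in Nos1 than in Lhx6 cells, the widest P5 gap between these classes among the 6 genes. The median mt- share there was 3.25% in Nos1 and 4.35% in Lhx6 cells, and its part in this gap was not tested. The P1 over E16.5 ratio in Lhx6 cells was 45.9 (14.9 to 230), resting on 3 UMIs at E16.5, and Slc17a8 no longer passed the filter on low counts once cells were thinned or deep cells left out. The P5 over P1 ratio was 2.89 (2.11 to 4.03). Neurod6 cells had 0, 2 and 1 UMIs, too few to set a negative level, and a difference from Lhx6 cells was not detectable at this depth.

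Abat, the GABA transaminase gene (ENSMUSG00000057880, chromosome 16, 8513429 to 8621568, plus strand), was low, and also present in Neurod6 cells at E16.5 and P5. Lhx6 cells had 24.1 CPM (22.0 to 26.2), 38.3 CPM (34.2 to 42.9) and 41.6 CPM (37.5 to 46.0), and Nos1 cells 43.8 CPM (28.6 to 64.1), 43.2 CPM (34.5 to 53.4) and 33.6 CPM (26.0 to 42.8). Neurod6 cells had 23.1 CPM (12.3 to 39.5, from 13 UMIs) at E16.5, 0 UMIs at P1 and 48.0 CPM (9.90 to 140.3, from 3 UMIs) at P5. In exclusive Neurod6 cells the E16.5 level was 17.5 CPM (5.67 to 40.7), from 5 UMIs. At E16.5 Nos1 cells were 1.82-fold (1.18 to 2.70) above Lhx6 cells, and 2.08-fold (1.26 to 3.24) in exclusive classes, from 20 UMIs. At P1 Lhx6 cells were at least 3.099-fold higher than the floor of 3 UMIs in Neurod6 cells, and the 95% interval of the ratio to those cells began at 2.50, or 1.07 in exclusive classes, while at E16.5 the 2 classes were at 1.04 times (0.603 to 1.97). From E16.5 to P1 Abat was 1.59-fold (1.38 to 1.84) higher in Lhx6 cells.

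Slc38a1, the glutamine transporter gene (ENSMUSG00000023169, chromosome 15, 96571418 to 96642913, minus strand), stood near the same level in excitatory and GABAergic cells at E16.5 and P1. Lhx6 cells had 241 CPM (235 to 248), 236 CPM (225 to 247) and 129.9 CPM (123 to 137), and Nos1 cells 239 CPM (201 to 282), 235 CPM (214 to 258) and 141 CPM (125 to 159). In the exclusive E16.5 Nos1 cells it was 250.3 CPM (204 to 304). Neurod6 cells had 201 CPM (166 to 242), 227 CPM (171 to 295) and, from 4 UMIs, 64.0 CPM (17.4 to 164). The P5 level was 1.82-fold (1.69 to 1.95) below P1 in Lhx6 cells and 1.67-fold (1.43 to 1.94) below it in Nos1 cells. In P1 Lhx6 cells Slc38a1 was 263 and 230.5 CPM in the 2 kept bins of mitochondrial share and 467 CPM in the removed cells. With no limit on mt- UMIs Lhx6 cells had 247, 295 and 131 CPM, with P1 at 1.20 times (1.15 to 1.25) the E16.5 level and P5 at 0.443 times (0.414 to 0.473) the P1 level, and P1 Nos1 cells stood at 0.860 times (0.784 to 0.941) the P1 Lhx6 level.

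Read against all genes with an expected count of at least 10 UMIs in the smaller class, few of the 6 passed 2-fold between Nos1 and Lhx6 cells. At E16.5 0 of the 5 genes that passed this filter were higher in Nos1 cells (background 1.78% of 7374 genes) and 1, Gad2, was lower (2.58%). At P1 0 of 6 were higher (2.67% of 10516 genes) and 0 lower (2.32%). At P5 0 of 6 were higher (2.77% of 10453 genes) and 1, Slc17a8, was lower (5.25%). Among kept cells Slc38a1 was within counting error between the classes in all 3 libraries.

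Against Neurod6 cells Gad1, Gad2 and Slc32a1 stood far apart, while Slc17a8 did not pass the filter at any age. At E16.5 3 of 5 genes were higher in Lhx6 cells (background 6.51% of 7207 genes) and 0 lower (2.26%): Gad1 by 17.1-fold (8.98 to 37.3), Gad2 by 21.2-fold (10.8 to 49.2) and Slc32a1 by 12.3-fold (7.19 to 23.1). In exclusive classes Gad1 was 26.2-fold (8.95 to 127) higher there, from 3 UMIs in Neurod6 cells. At P1 3 of 4 were higher (7.41% of 4766 genes) and 0 lower (2.31%), with Gad1 at 5.41-fold (3.16 to 10.2), Gad2 at 7.23-fold (4.22 to 13.6) and Slc32a1 at 5.37-fold (2.91 to 11.2). Of the 30 P1 Neurod6 cells 10 were also Nos1 cells and 4 also Lhx6 cells. In exclusive P1 classes Gad1 was 9.96-fold (3.40 to 48.3) higher in Lhx6 cells, while the intervals of Gad2 and Slc32a1 began at 10.8-fold and 6.18-fold. At P5 2 of 2 were higher (13% of 1230 genes) and 0 lower (2.28%), with Gad2 at least 10.1-fold and Slc32a1 at least 9.41-fold above the floor of 3 UMIs. Gad1 did not pass the filter there and was at least 3.12-fold above this floor. The 95% intervals of the 3 ratios to the Neurod6 cells began at 8.24, 7.65 and 2.53. The Neurod6 level of Gad1, Gad2 and Slc32a1 at E16.5 was 5.86% (2.68 to 11.1), 4.71% (2.03 to 9.29) and 8.12% (4.32 to 13.9) of the Lhx6 level, and that of Sst was 7.54% (6.27 to 9.002). These intervals overlapped. In exclusive classes at E16.5 Gad2 was at 0% (up to 4.25) and Sst at 10.3% (8.25 to 12.7), which did not overlap. Gad1 at 3.82% (0.788 to 11.2) and Slc32a1 at 7.32% (2.69 to 15.9) overlapped Sst there. The part of free RNA in the Neurod6 level was not tested. At P1 the shares were 18.5%, 13.8% and 18.6%, with Sst at 7.88% (5.27 to 11.3). In exclusive classes at P1 Gad2 and Slc32a1 had 0 UMIs, Gad1 was at 10.0% (2.07 to 29.4) and Sst at 1.28% (0.155 to 4.62).

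Between ages few of the 6 genes passed 2-fold, too few to be set closely against the background. From E16.5 to P1 1 of 6 genes in Lhx6 cells was higher by 2-fold (Slc17a8; background 10.7% of 12290 genes) and 0 lower (3.66%), and in Nos1 cells 1 of 5 was higher (Gad2; 11.6% of 7826 genes) and 0 lower (4.59%). From P1 to P5 2 of 6 in Lhx6 cells were higher (Slc32a1 and Slc17a8; 9.01% of 12776 genes) and 0 lower (10.4%), and in Nos1 cells 0 of 5 were higher (6.54% of 10550 genes) and 0 lower (12.3%). Slc32a1 and Slc17a8 no longer passed 2-fold in Lhx6 cells with a pseudocount of 10 CPM (log2 ratios of 0.998 and 0.80), and with more than 1000 genes and under 5% mt- UMIs Gad1 (-1.04) and Slc38a1 (-1.01) were also past it, as lower. With no limit on mt- UMIs the 2 were Slc17a8, as higher, and Slc38a1, as lower, and Slc32a1 was not among them. These comparisons share the P1 library, and no test of a change with age was possible with 1 library per age.

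Cells were also thinned to 2000 UMIs, so that classes of unlike depth could be compared by the share of cells with a UMI (Clopper-Pearson intervals, shallower cells left out). These intervals cover the sampling of cells within a library only, not the spread between animals. For Gad1 this share was 38.5%, 41.9% and 33.8% in Nos1 cells and 39.2%, 39.5% and 25.1% in Lhx6 cells, against 4.76%, 10.7% and 0 of 14 in Neurod6 cells, where 0 allows up to 23.2%. Unthinned, Gad1 was seen in 59.7%, 61.3% and 45.5% of Nos1 cells, 70.8%, 58.8% and 47.1% of Lhx6 cells and 14.3%, 16.7% and 0% of Neurod6 cells. The thinned shares of Gad1 in Nos1 and Lhx6 cells overlapped at E16.5 and P1, and Nos1 cells were above at P5. For Gad2 the thinned shares were 15.4% (7.63 to 26.5), 37.1% (32.0 to 42.3) and 54.1% (49.2 to 59.0) in Nos1 cells and 45.9% (44.1 to 47.7), 53.6% (50.9 to 56.3) and 55.2% (52.8 to 57.6) in Lhx6 cells, with 2.38%, 3.57% and 0 of 14 in Neurod6 cells. Unthinned, Gad2 was seen in 35.8%, 54.1% and 61.1% of Nos1 cells, 78.5%, 73.3% and 76.0% of Lhx6 cells and 9.52%, 13.3% and 0% of Neurod6 cells. The thinned share of Gad2 was therefore lower in Nos1 cells of the E16.5 and P1 libraries, and at P5 the thinned shares of the 2 classes overlapped. In the exclusive E16.5 Nos1 cells the thinned shares were 46.0% (31.8 to 60.7) for Gad1, 20.0% (10.03 to 33.7) for Gad2 and 44.0% (30.0 to 58.7) for Slc32a1.

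For Slc32a1 the thinned shares were 35.4%, 35.1% and 54.3% in Nos1 cells and 39.7%, 32.5% and 54.6% in Lhx6 cells, against 2.38%, 3.57% and 0 of 14 in Neurod6 cells. Unthinned, Slc32a1 was seen in 68.7%, 54.6% and 66.2% of Nos1 cells, 73.8%, 53.5% and 78.0% of Lhx6 cells and 11.9%, 13.3% and 0% of Neurod6 cells. The 2 GABAergic classes overlapped in the thinned share in each library. Slc38a1 was seen after thinning in 24.6%, 39.3% and 26.3% of Nos1 cells, 38.1%, 36.7% and 23.4% of Lhx6 cells and 21.4%, 46.4% and 14.3% of Neurod6 cells. Abat was seen in 9.23%, 7.30% and 6.52% of Nos1 cells, 3.77%, 5.86% and 7.29% of Lhx6 cells and 2.38%, 0% and 7.14% of Neurod6 cells. For Abat and Slc38a1 the Neurod6 intervals reached the GABAergic shares in every library except Slc38a1 at E16.5, where the upper bound of 36.8% lay below the Lhx6 share but inside its interval (36.4 to 39.9). Slc17a8 was seen in 1.54%, 1.12% and 0.725% of Nos1 cells and 0.0323%, 0.456% and 2.93% of Lhx6 cells, against 0 of 42, 0 of 28 and 1 of 14 Neurod6 cells, where the zeros allow up to 8.41% and 12.3%. Those shares of Slc17a8 lay within the Neurod6 intervals.

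**Figure D3:**
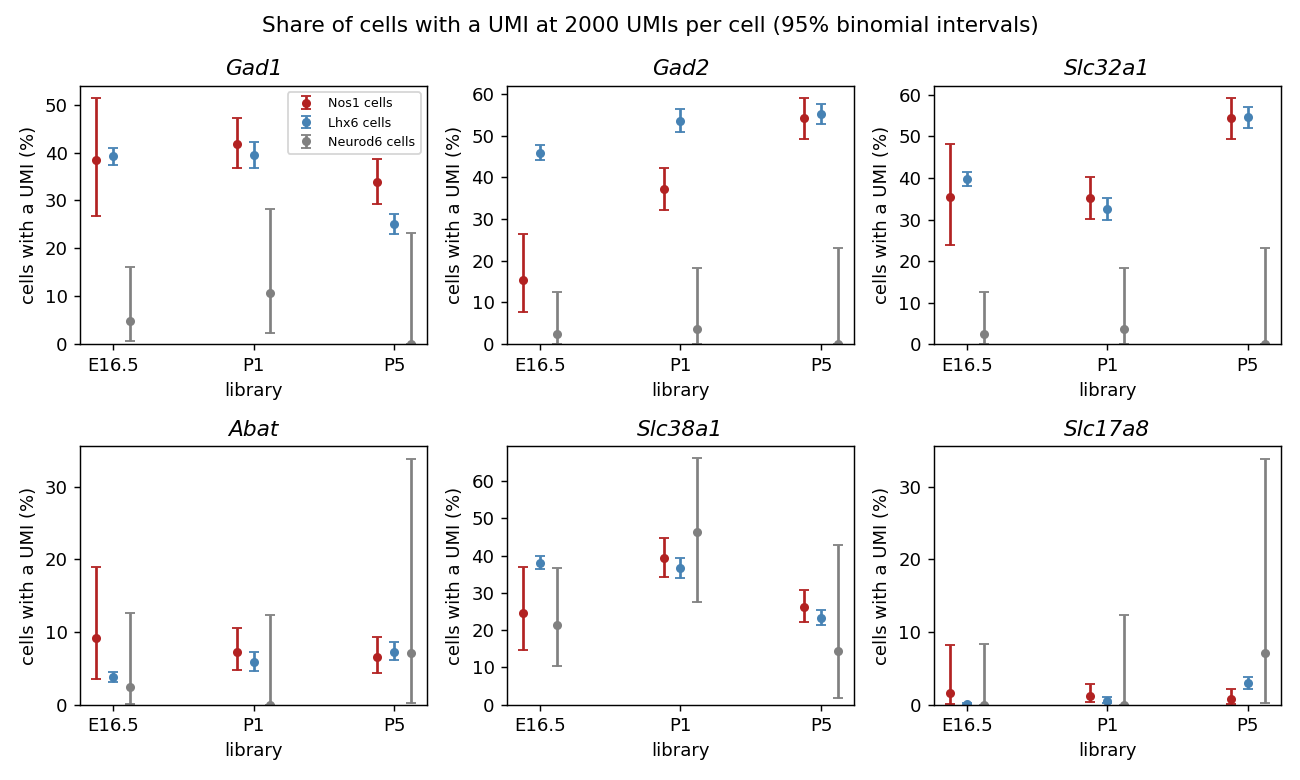
Share of cells with a UMI (%, vertical axis from 0) for each gene after thinning every cell to 2000 UMIs, in the 3 classes and 3 libraries, with 95% Clopper-Pearson intervals. Gad2 was present in 15.4%, 37.1% and 54.1% of Nos1 cells and 45.9%, 53.6% and 55.2% of Lhx6 cells.

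Co-detection of Gad1, Gad2 and Slc32a1 describes how often a cell showed the synthesis and loading genes together. After thinning, at least 1 of the 3 was present in 60.0% (47.1 to 72.0), 76.4% (71.6 to 80.7) and 86.5% (82.8 to 89.6) of Nos1 cells and in 79.0%, 81.0% and 83.7% of Lhx6 cells. The E16.5 value of Nos1 cells was 74.0% (59.7 to 85.4) without those that had a Neurod6 UMI. All 3 genes were present in 4.62% (6.00% in exclusive cells), 5.06% and 10.9% of Nos1 cells and in 8.10%, 6.69% and 8.55% of Lhx6 cells. In Neurod6 cells at least 1 was present in 7.14%, 10.7% and 0%, and 0 cells had all 3. Among the thinned Nos1 cells, 21 at E16.5 had Gad1 without Gad2 and 6 had Gad2 without Gad1, whereas at P5 63 had Gad1 without Gad2 and 147 the reverse.

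Within the exclusive classes, cells were split by listed subset genes into those with the gene, at least 1 UMI in Nos1 cells and at least 2 in Lhx6 cells, and those with 0 UMIs, where each side had at least 30 cells. Asking for UMIs of a gene also picks deeper cells, so these are levels in CPM and not shares. Dach1, a marker of some long-range neurons, divided Nos1 cells by Gad2: 129 CPM with Dach1 against 327 CPM without at P1, 2.54-fold (1.92 to 3.42) lower, and 202 against 412 CPM at P5, 2.05-fold (1.47 to 2.93) lower. Slc32a1 did not differ beyond counting error by Dach1, with 262 against 210.0 CPM at P1 and 425 against 399 CPM at P5. Nos1 cells with Lypd1, another long-range marker, had 236 CPM of Gad1 at P5 against 174 CPM without, 1.36-fold (1.11 to 1.67) higher. At P1 this split gave 292 against 293 CPM, 0.995 times (0.789 to 1.25). Gad2 was higher with Lypd1 in both libraries, by 1.31-fold (1.06 to 1.62) at P1 and 1.21-fold (1.05 to 1.40) at P5. Gad2 was thus lower in the Dach1 side of the Nos1 cells while Slc32a1 was not.

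Among Lhx6 cells, Crhbp, which encodes a binding protein for corticotropin-releasing hormone, went with high Gad1 at E16.5. Crhbp cells had 523 CPM of Gad1 against 253 CPM without (2.06-fold, 1.89 to 2.25) at E16.5, 447 against 271 CPM at P1 and 156 against 146 CPM at P5. Abat was 61.4 against 20.5 CPM in the same E16.5 cells, 3.00-fold (2.29 to 3.88) higher, but within counting error at P1 (1.42-fold, 0.993 to 2.00) and P5 (1.08-fold, 0.809 to 1.42). Gad2 went from 0.657 times (0.574 to 0.748) the level without Crhbp at E16.5, through 1.02 times (0.902 to 1.15) at P1, to 1.38 times (1.28 to 1.49) at P5. The Crhbp difference in Gad1 was within counting error at P5. The E16.5 Crhbp cells were 81 in number, with a median of 13046 UMIs against 5677 without, and the part of depth was not tested. Tac1 cells, which make substance P, had more Gad1 in each library, by 1.33-fold (1.14 to 1.53), 1.41-fold (1.16 to 1.69) and 1.55-fold (1.24 to 1.92). Cells with Cxcr4, a receptor that guides migrating interneurons, had 12.6 against 28.5 CPM of Abat at E16.5, 2.26-fold (1.61 to 3.27) lower, and 353 against 281 CPM of Gad2. At P1 Abat was 1.83-fold (1.12 to 3.20) lower with Cxcr4, and Gad2 was within counting error at 1.07 times (0.946 to 1.21). Slc17a8 at P5 was 10.5 CPM with Npy against 27.3 CPM without (2.59-fold lower, 1.79 to 3.83) and 10.9 CPM with Reln against 29.5 CPM without (2.71-fold lower, 1.91 to 3.86). Slc32a1 went the other way with Reln at P5, at 489 against 390.4 CPM (1.25-fold, 1.17 to 1.34). Pdyn cells at P5 had 358 CPM of Gad2 against 522 CPM without, 1.46-fold (1.32 to 1.61) lower.

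A list of 31 other genes of GABA and glutamate handling was counted, 4 of them Dlx transcription factors of GABA neurons. Between Nos1 and Lhx6 cells 0 of 15 that passed the filter were 2-fold higher and 3 lower at E16.5 (Glul, Dlx1 and Dlx2), against 1.78% and 2.58% of all genes (median log2 ratio 0.03, all genes -0.04). At P1 1 of 20 was higher (Slc17a7) and 0 lower, against 2.67% and 2.32% (median -0.09, all genes -0.03). At P5 0 of 19 were higher and 2 lower (Slc6a11 and Slc1a2), against 2.77% and 5.25% (median -0.15, all genes -0.08). The E16.5 differences of Dlx1 and Dlx2, transcription factors of GABA neurons, were 2.11-fold and 2.40-fold, and in exclusive classes their log2 ratios were -0.58 and -0.76, inside 2-fold. Slc17a7, an excitatory vesicular transporter, was at 36.6 CPM in P1 Nos1 cells against 0.2497 CPM in Lhx6 cells. It is itself one of the 5 excitatory markers summed above, and in P1 Nos1 cells without a Neurod6 UMI it stood at 23.7 CPM, from 43 UMIs in 2 cells.

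Against Neurod6 cells 5 of 15 listed genes were higher in Lhx6 cells and 1 lower at E16.5, beside 6.51% and 2.26% of all genes (median 0.17, all genes 0.11). At P1 4 of 13 were higher and 0 lower, beside 7.41% and 2.31% (median 0.12, all genes 0.07), and at P5 1 of 5 was higher and 0 lower, beside 13% and 2.28% (median 0.65, all genes 0.13). The higher genes were Glul, Dlx1, Dlx2, Dlx5 and Dlx6 at E16.5, the same 4 Dlx genes at P1 and Dlx1 alone at P5. The lower gene at E16.5 was Slc1a2. At P1 and P5 no listed gene outside the Dlx transcription factors was past 2-fold. Dlx1 was higher in each library, by 10.9-fold (6.37 to 20.5), 14.5-fold (5.67 to 53.4) and, from 2 UMIs in Neurod6 cells, 7.76-fold (2.15 to 64.1). From E16.5 to P1 4 of 20 were higher and 2 lower in Lhx6 cells, beside 10.7% and 3.66% of all genes (median 0.57, all genes 0.16), and 2 of 18 higher and 3 lower in Nos1 cells, beside 11.6% and 4.59% (median 0.59, all genes 0.15). From P1 to P5 2 of 22 were higher and 2 lower in Lhx6 cells, beside 9.01% and 10.4% (median 0.23, all genes -0.09), and 0 of 20 higher and 2 lower in Nos1 cells, beside 6.54% and 12.3% (median -0.11, all genes -0.17). With so few listed genes these shares cannot be set closely against the background. Pdxk, the kinase that makes the GAD cofactor pyridoxal phosphate, was among the genes higher at P1, by 4.76-fold (4.12 to 5.52) in Lhx6 cells and 4.999-fold (2.35 to 12.7) in Nos1 cells. Aldh5a1, which acts after Abat in GABA breakdown, was 2.22-fold (1.86 to 2.66) higher at P1 than at E16.5 in Lhx6 cells.

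Antisense genes overlapped Gad1 and Slc32a1 in the annotation (GENCODE M21), and their own counts were near 0, at up to 0.648 CPM for Gad1os and 3.57 CPM for Gm14205. Another 2 annotated genes overlapped Gad2, are absent from the count files and could not be counted. The genes most like each member over the 9 class and library profiles, among 7910 candidates, shared the same libraries and class depths, so their correlations carry no p. For Gad1 they were Ptprm (r = 0.995), Wnt7a (0.992) and Rbms3 (0.988), and for Gad2 Nhs (0.985), Elfn1 (0.981) and Arl4c (0.981). For Slc32a1 they were Wnt7a (0.985), Mgll (0.984) and Creld1 (0.978), and for Slc38a1 Cstf3 (0.997), Fam208a (0.995) and Smim26 (0.989). For the low genes they were Rexo4 (0.988), Mtif3 (0.961) and Degs1 (0.956) with Abat, and Ankrd45 (0.970), Cd47 (0.963) and Slc7a14 (0.958) with Slc17a8.

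Ordered by level over the 9 profiles of the classes as defined, E16.5 Nos1 cells with a Neurod6 UMI included, Gad1 ran from P1 Lhx6 cells through P1 Nos1 and E16.5 Lhx6 cells, with overlapping neighbours, then P5 and E16.5 Nos1 cells and P5 Lhx6 cells, again overlapping, to the Neurod6 cells. Gad2 ran from P5 Lhx6 cells to P5 Nos1 and P1 Lhx6 cells, which overlapped, then E16.5 Lhx6, P1 Nos1 and E16.5 Nos1 cells, each below the one before, and the E16.5 Nos1 cells overlapped the P1 Neurod6 cells, which lay above the E16.5 ones. Slc32a1 ran from P5 Lhx6 to P5 Nos1 cells, then the E16.5 pair and the P1 pair, each pair overlapping, and then the Neurod6 cells. For Abat every neighbour overlapped, and so did every neighbour for Slc17a8. For Slc38a1 the only break was between the E16.5 and P1 profiles of all 3 classes and the P5 profiles.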

How the data were processed

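The deposited matrices hold counts (UMIs per gene and cell, not normalized), which the authors made with Cell Ranger 3.1.0 (E16.5, P5) and 3.0.2 (P1) per the file headers, on GRCm38. Per the study's methods, STAR did the alignment and Seurat the later steps; their versions are not given in the sources used here. Python 3.11.15, numpy 2.4.6, scipy 1.17.1 and pandas 2.3.3 were used. Cells with more than 700 genes and under 10% mt- UMIs were kept. UMIs were summed by class, scaled to CPM, and compared as log2 ratios with a pseudocount of 1 CPM, for genes with an expected count of at least 10 UMIs in the smaller class. Ratios have exact conditional binomial intervals (95%, counting error only). The intervals were tried on simulated Poisson counts, the model that they assume. That simulation held no spread between cells, so it cannot show how well the intervals hold for real cells. No p was computed, since each age had 1 library. Shares used cells thinned to 2000 UMIs. Named genes were the 6 members, 31 pathway genes, the listed markers and the 3 genes most like each member; some other listed genes are not reported here, and the list counts were remade without them after values were seen. The members and lists were chosen with earlier results of these data known. The split by mt- share, the reading of other cells, the choice of subsets described, the alternatives with no limit on mt- UMIs and without Dach1 cells, and the interval used to compare log2 ratios between settings, recentred on the value with its pseudocount, were settled after values were seen.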

Additional observations from a re-analysis of the deposited data

Results flagged for a closer look

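Cells in no class entered no comparison between classes or ages, and cells removed by the filter entered such comparisons only with no limit on mt- UMIs. Both groups of cells carried Gad1, Gad2 and Slc32a1 above the counting interval of the Neurod6 cells of their library. Slc17a8 was not above it in any library, Abat was above it only at P1, and Slc38a1 was above it in the removed cells of each library but in the cells in no class only at P1. Kept cells in no class (594, 445 and 546 at E16.5, P1 and P5) had Gad1 at 294, 300.3 and 135 CPM, Gad2 at 327, 381 and 331 CPM and Slc32a1 at 292, 261 and 472 CPM. At P1 they also had Abat at 52.1 CPM and Slc38a1 at 392 CPM. Cells removed by the filter (526, 1939 and 426) had Gad1 at 294, 246 and 138 CPM, Gad2 at 359, 281 and 254 CPM, Slc32a1 at 424, 462 and 839 CPM and Slc38a1 at 444, 468 and 230.5 CPM. Removed P1 cells had Abat at 38.2 CPM. At P5 Slc17a8 was at 19.3 CPM in the cells in no class and 31.3 CPM in the removed cells, beside 18.8 CPM in Lhx6 cells. The P5 Neurod6 interval of Slc17a8, from 1 UMI, reached 89.2 CPM.

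The Nos1 over Lhx6 ratio of Gad1 lay on opposite sides of 1 at E16.5 (0.690) and P5 (1.36), and was 0.977 at E16.5 in exclusive classes. These differences were not tested.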

How the results depend on the processing

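Of 125 counts of members past 2-fold under other settings, 108 stayed within 1.5 times the count given and 17 did not; of 630 log2 ratios, 553 moved by less than their counting interval and 77 by more. Shares and co-detection were less stable: 53 of 162 shares of cells with a UMI moved beyond their interval (35 of them unthinned) and 6 of 18 co-detection values did, all 6 unthinned. No called ratio changed sign. Nos1 over Lhx6 cells at E16.5 gave 2 members in place of 1 with the mean of each cell's CPM, with at least 1 UMI in the pair and at 1.5-fold. With more than 1000 genes and under 5% mt- UMIs, Lhx6 over Neurod6 cells at P1 gave 0 in place of 3, since 1 Neurod6 cell was left, P1 over E16.5 in Lhx6 cells gave 0 in place of 1, P5 over P1 in Lhx6 cells 4 in place of 2 (Gad1 and Slc38a1 added, as lower), and the share of cells with a UMI was above that of Neurod6 cells in 5 in place of 8 of 18 readings. P1 over E16.5 in Lhx6 cells also gave 0 without deep cells, thinned and with a pseudocount of 10 CPM, and 2 at 1.5-fold. At least 1 UMI in the pair gave 4 in place of 2 for Lhx6 over Neurod6 cells at P5 and 2 in place of 1 for P1 over E16.5 in Nos1 cells. P5 over P1 in Lhx6 cells gave 0 with a pseudocount of 10 CPM (Slc32a1 and Slc17a8 lost) and 4 at 1.5-fold (Gad1 and Slc38a1 added, as lower), and in Nos1 cells 2 in place of 0 at 1.5-fold. Of 2 settings chosen after values were seen, exclusive Nos1 cells without a Dach1 UMI gave 0 in place of 1 (Gad2 lost) for Nos1 over Lhx6 cells at E16.5 and for P1 over E16.5 in Nos1 cells. No limit on mt- UMIs left every count within 1.5 times, but exchanged Slc32a1 for Slc38a1, as lower, in P5 over P1 in Lhx6 cells and added Abat to Lhx6 over Neurod6 cells at P1. Unthinned, all 3 synthesis and loading genes were present in 22.4%, 23.3% and 24.9% of Nos1 cells and 45.1%, 30.1% and 34.3% of Lhx6 cells. Except where stated, the cause was not tested.

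No paired analysis was possible because each age had 1 library, which left no replicates to pair between ages, and no result here comes from a test. The 2 classes of a library do form a pair, but no test over these 3 pairs, which differ in age, was run. Neurod6 cells numbered 42, 30 and 14, so the negative level is coarse, most of all at P5.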
